A study of Mus musculus with 6 samples.

Results

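The transcripts of 10 Ets family transcription factors were followed in liver iNKT1 cells of control mice and of mice with floxed Ets1 alleles. These 10 were Ets1 itself, Fli1, Elf1, Elf2, Elf4, Gabpa, Etv3, Etv6, Elk4 and Erf. They were taken by gene name, all 10 had a row among the 12942 genes of the table, and all 10 passed the filter on low values that left 11226 genes for testing. iNKT1 cells are innate-like T cells that recognise lipid antigens on CD1d and use T-bet, the product of Tbx21. All cells came from liver and were sorted as CD1d-Tetramer+ YFP+. The control group had the genotype Tbx21Cre Rosa26-YFP+, where Cre driven by the T-bet gene switches on a YFP reporter. The cKOHet group had the genotype Tbx21Cre Ets1F/F Tbx21F/+ Rosa26-YFP+, so that 2 floxed Ets1 alleles and 1 floxed Tbx21 allele were added to the same Cre and reporter. Each group held 3 libraries, named replicates 1, 2 and 4, and neither the age nor the number of mice per library is given in the sources used here. Because both floxed genes came together, the effect of losing Ets1 and that of a single Tbx21 allele cannot be told apart.

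Ets factors share a winged helix-turn-helix domain that binds DNA around the core GGAA, and so can compete for the same sites. Some family members mainly activate transcription (Ets1, Fli1, Elf1, Elf4, Gabpa), others mainly repress it (Erf, Etv3, Etv6), and Elk4 acts with serum response factor as a target of MAP kinases. In lymphocytes Ets1 is usually the most prominent member and is needed for the development of NK and NKT cells. The comparison of cKOHet with control libraries bears on whether other members rise where Ets1 is lost.

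Levels are the authors' normalised read counts, whose totals ran from 4996523 to 5219483 per library. Tests were made with limma on log2(value + 1) over all 11226 genes, and a gene was called at a Benjamini-Hochberg adjusted p under 0.05. Intervals are 95% intervals of the log2 fold change, cKOHet minus control. The list of T and iNKT markers was well covered, with 7 of 7 genes analysed. Their summed level was 15855 to 20269.9 in controls and 20388 to 21115 in cKOHet libraries. Of the 7, 1 was called higher and 6 were not called, beside 21.4% called over all genes tested. The groups did not overlap at 3, with Cd3g and Zbtb16 higher and Cd2 lower, beside 35.8% of all genes tested. Replicate 4 stood apart in both groups: Xist was at 1.17 in the control and 0.082 in the cKOHet library, against 4337 to 5657 in the other 4, and Ddx3y was at 519 and 604 against at most 1.16. The labels do not give the sex of the mice, and each group holds 1 such library.

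Ets1 (ENSMUSG00000032035, mm10 chromosome 9, 32636221 to 32757820, plus strand) had the largest change of the 14 Ets family genes tested. Its normalised read count was 7391, 6255 and 7787 in control replicates 1, 2 and 4 and 462, 596 and 441 in the cKOHet replicates. Every control library was far above every cKOHet library, and the mean was 14.3-fold lower in cKOHet libraries. The log2 fold change was -3.84 (SE 0.14, limma adjusted p = 1.06e-10), and it was -3.69 in replicates 1 and 2 alone. Values are given per gene and not per exon, so transcripts with and without the floxed part were not separated. Tbx21, with 1 floxed allele, stood at 2434, 2504 and 2765 in controls and 2173, 2316 and 2127 in cKOHet libraries, and was not called (log2 fold change -0.22, interval -0.46 to 0.02, adjusted p = 0.196).

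Of the 9 members other than Ets1, 1 was called higher (Erf), 1 was called lower (Elk4) and 7 were not called. Over all genes tested, 21.4% were called, 11.5% higher and 9.97% lower, so a share of 2 in 9 was near that background. The groups did not overlap at 5 of the 9, namely Fli1, Elf4, Etv6 and Erf on the higher side and Elk4 on the lower, against 35.8% of all genes tested (19.1% on the higher side and 16.7% on the lower). The 9 members' median log2 fold change was 0.23, beside 0.01 over all genes tested, and 7 of the 9 lay above 0. cKOHet replicate 4 was the highest of the 6 libraries for 6 of the 9 members.

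**Figure D1:**
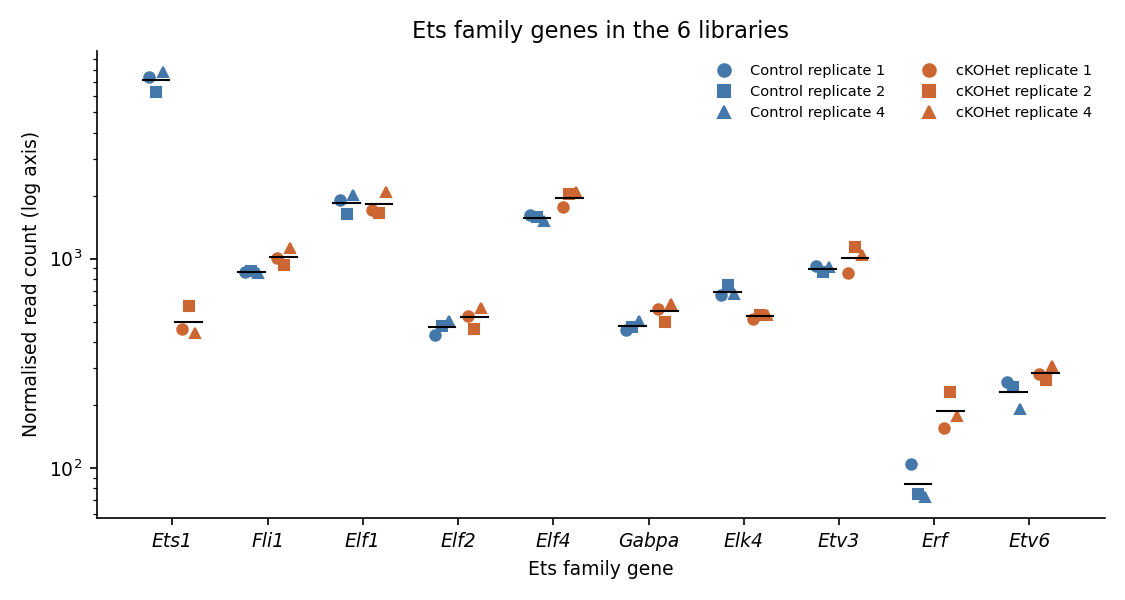
Normalised read count (log axis) of each of the 10 Ets family genes in the 6 libraries, with blue points for control and orange points for cKOHet libraries, marker shape for the replicate and a black bar for the group mean. Ets1 drops from between 6255 and 7787 to between 441 and 596, and of the other 9 genes only Erf (higher) and Elk4 (lower) were called.

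Fli1 (chromosome 9, 32422204 to 32542861, minus strand), an activator needed for megakaryocytes and endothelium, lies beside Ets1. The genes point away from each other across 93.4 kb that hold no protein-coding gene in GENCODE M21. Its control libraries had 866, 874 and 849.9, and its cKOHet libraries 1009, 932 and 1119. All 3 cKOHet values were above all 3 controls, and the controls lay close together (863 ± 12.5, SD, n = 3). The difference was small, with a log2 fold change of 0.24 (interval -0.01 to 0.48, limma adjusted p = 0.178), and the interval allows at most a 1.4-fold rise.

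The Elf branch gave no called gene. Elf1, an activator of T cell genes such as Il2ra, was at 1898, 1629.7 and 2023 in controls and 1707, 1658 and 2077 in cKOHet libraries. These ranges overlapped almost entirely (log2 fold change -0.03, interval -0.30 to 0.24, limma adjusted p = 0.909). Elf2 was at 430.1, 477 and 501 in controls and 529.8, 463 and 579 in cKOHet libraries, also overlapping (0.16, interval -0.13 to 0.44). Elf4, known for holding CD8 T cells in quiescence and for driving the perforin gene in NK cells, was at 1612, 1582 and 1513 in controls and 1762, 2028 and 2082 in cKOHet libraries. Here the groups were separate, and the log2 fold change was 0.32 (SE 0.11, interval 0.07 to 0.56), but the adjusted p of 0.0609 missed the threshold. Without cKOHet replicate 1 it passed (log2 fold change 0.39, adjusted p = 0.0335), and in replicates 1 and 2 alone it was 0.24 (adjusted p = 0.241). Elf4 is on the X chromosome, and its replicate 4 was the lowest control and the highest cKOHet library.

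Gabpa, the DNA-binding subunit of GA-binding protein, drives genes of mitochondria and of basic cell functions and, in T cells, Il7r. It was at 454, 472 and 506 in controls and 572, 500.5 and 609 in cKOHet libraries. The lowest cKOHet value lay within the control range (log2 fold change 0.23, interval -0.05 to 0.50, limma adjusted p = 0.251). Its partner subunits Gabpb1 and Gabpb2, named after their values were seen, were at 254 ± 16.7 and 807 ± 93.9 in controls and 258 ± 15.2 and 919 ± 50.6 in cKOHet libraries (SD, n = 3). Neither was called (log2 fold changes 0.02 and 0.19, limma adjusted p = 0.942 and 0.314).

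Elk4, a ternary complex factor that joins serum response factor at genes such as Egr1 and Mcl1, was the member that fell besides Ets1. The controls held 668, 745 and 675, and the cKOHet libraries 512, 540.3 and 539. The groups did not overlap, and the cKOHet libraries lay close together (530.4 ± 16.2, SD, n = 3). The log2 fold change was -0.39 (SE 0.12, limma adjusted p = 0.0292), a 1.31-fold lower mean. Leaving out 1 library ended the call in 5 of 6 cases, all but cKOHet replicate 4 (adjusted p = 0.0576 to 0.118, with log2 fold changes of -0.42 to -0.34). In replicates 1 and 2 alone the value was -0.42 (adjusted p = 0.0605). Elk4 shares 84 bases of exon, 1.31% of its own, with Mfsd4a on the opposite strand, which was also called lower with overlapping groups (349 ± 43.0 and 243 ± 54.8, log2 fold change -0.53, limma adjusted p = 0.0444). The strand setting of the counting is not given in the sources used here, so reads from that stretch cannot be assigned to either gene. A further 104 bases are shared with the noncoding Gm29103 on the same strand.

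The other ternary complex factors were not called. Elk1 was at 79.4, 50.7 and 66.6 in controls and 67.5, 103 and 119.6 in cKOHet libraries, overlapping (log2 fold change 0.54, limma adjusted p = 0.213). Elk3 was at 396, 412 and 394 in controls and 373, 339 and 444 in cKOHet libraries, the cKOHet values lying on both sides of the controls (-0.07, adjusted p = 0.807). Elk1 shares 1.41% of its exons with Uxt and Elk3 6.95% with Cdk17, and neither neighbour was called. Srf, which encodes their shared partner, was at 452 ± 59.3 and 443 ± 25.6 (SD, n = 3; log2 fold change -0.02, adjusted p = 0.939).

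Among the repressors, Erf rose. Erf blocks Ets sites in resting cells and leaves the nucleus when ERK phosphorylates it. Its level was 104, 75.0 and 73.0 in controls and 155, 230.1 and 178 in cKOHet libraries. The lowest cKOHet library was above the highest control, and the mean rose 2.23-fold from 84.1 ± 17.5 to 188 ± 38.4 (SD, n = 3). The log2 fold change was 1.15 (SE 0.23, interval 0.66 to 1.64, limma adjusted p = 0.00183). It stayed called with every single library left out (0.99 to 1.31, adjusted p = 0.00143 to 0.0168) and in replicates 1 and 2 alone (1.09, adjusted p = 0.0269).

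Etv3, a close relative of Erf that restrains Myc and growth in macrophages, was at 917, 863 and 910 in controls and 855, 1131 and 1045 in cKOHet libraries. cKOHet replicate 1 was below all controls while the other two were above them (log2 fold change 0.16, interval -0.11 to 0.43, limma adjusted p = 0.417). Etv6, a repressor that recruits Ncor and Sin3 complexes, was at 258, 243 and 192 in controls and 280, 263 and 308 in cKOHet libraries. The groups were separate but close, with 258 in control replicate 1 beside 263 in cKOHet replicate 2 (0.30, interval -0.05 to 0.65, limma adjusted p = 0.223). Over the 7 uncalled members, the upper limits of the intervals ran from 1.18-fold for Elf1 to 1.57-fold for Etv6.

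**Figure D2:**
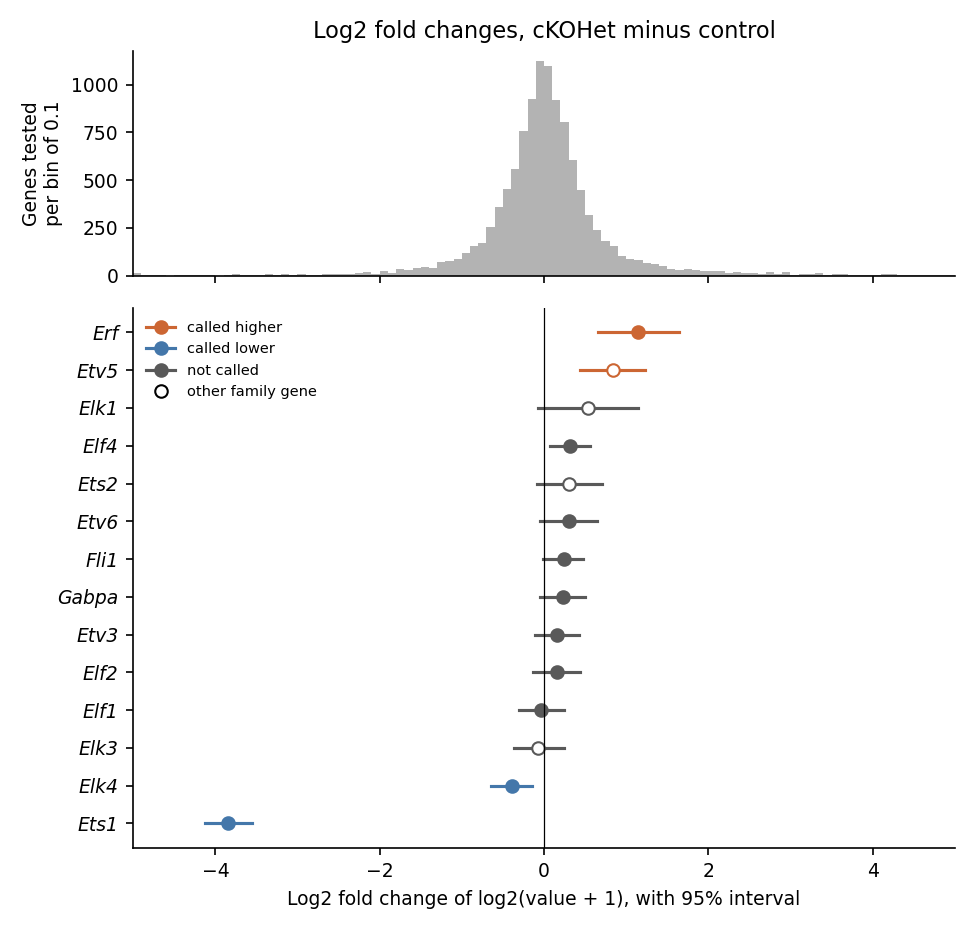
Upper panel, number of genes tested per bin of 0.1 in log2 fold change (values beyond the axis are counted in the end bins). Lower panel, log2 fold change of the 14 Ets family genes tested with 95% intervals, where filled points are the 10 genes followed and open points other family genes. Ets1 lies at -3.84, Erf at 1.15, Etv5 at 0.84 and Elk4 at -0.39, and the other 10 genes were not called.

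The promoters of Erf and Elk4 are shown because these were the members called besides Ets1. Erf has 1 window in the table and Elk4 has 3, of which the first is printed. RefSeq windows of GRCm38.p6, from 250 bases before to 50 bases after a start, were matched by symbol for 8 members (13 windows), and none was matched for Ets1 and Fli1. The stretch from 250 to 21 bases before the start is printed, with GGAA or its reverse complement TTCC and the longer CCGGAAGT in capitals. Elk4 is at chr1:132007370-132007599 on the plus strand and Erf at chr7:25250779-25251008 on the minus strand.
Elk4: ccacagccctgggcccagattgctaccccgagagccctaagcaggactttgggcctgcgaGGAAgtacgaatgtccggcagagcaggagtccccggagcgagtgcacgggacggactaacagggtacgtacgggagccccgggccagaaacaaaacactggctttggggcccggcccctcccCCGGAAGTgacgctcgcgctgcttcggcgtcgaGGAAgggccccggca
Erf: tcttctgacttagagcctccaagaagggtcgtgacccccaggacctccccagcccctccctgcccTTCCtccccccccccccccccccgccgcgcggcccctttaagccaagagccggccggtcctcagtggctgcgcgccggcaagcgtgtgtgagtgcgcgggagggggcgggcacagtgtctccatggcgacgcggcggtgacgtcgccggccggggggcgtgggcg
Over its full 300 bases the first Elk4 window held 4 GGAA matches on either strand, 1 of them inside CCGGAAGT starting 68 bases before the start. The other Elk4 windows held 2 and 6 GGAA matches and no CCGGAAGT, and the Erf window held 1 GGAA match and no CCGGAAGT. Of 32544 promoter windows, 96.0% held GGAA, with a median of 3 matches, and 3.92% held CCGGAAGT on either strand. Among the 13 windows of the members, 13 held GGAA and 1, the first of Elk4, held CCGGAAGT. A match describes letters in the window and no binding was measured.

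Beyond these 10, the mouse family has 16 further genes, of which 5 had a row and 4 were tested. The other 11, among them Spi1, Spib, Erg and Ehf, were not analysed here. Etv5, which in many tissues is induced by ERK signalling, was at 263, 215 and 385 in controls and 465, 499.7 and 537 in cKOHet libraries. All cKOHet values were above all controls, and Etv5 was called higher (log2 fold change 0.84, SE 0.18, limma adjusted p = 0.00392). Its relative Etv4 was listed at 0, 6.35 and 0.055 in controls, and its cKOHet libraries had 11.1, 20.7 and 8.32, too low to be tested. Ets2, the closest paralogue of Ets1, was at 123, 167 and 158 in controls and 190.4, 173 and 187 in cKOHet libraries. Its groups were separate, with no call (0.31, interval -0.09 to 0.71, limma adjusted p = 0.28).

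To compare genes with each other, levels were divided by the length of each gene's merged exons. Per kb, Ets1 led the 10 genes in controls, with a level of 843 ± 93.8 (SD, n = 3). Elf1 (275 ± 29.8), Elf4 (255 ± 8.27) and Fli1 (248 ± 3.58) followed, and the libraries of neighbours in this order overlapped. Next came Elk4 (109 ± 6.58), then Etv3 (87.3 ± 2.86) and Gabpa (83.9 ± 4.67), which overlapped each other, and last Elf2, Etv6 and Erf (49.1, 38.6 and 23.3 on average). In cKOHet libraries the per-kb order was Elf4 (318 ± 27.9), Fli1 (293 ± 26.9) and Elf1 (269 ± 34.0), again overlapping. Ets1 dropped to rank 7 (59.0 ± 9.88), overlapping Elf2 (54.8 ± 6.05), and Erf moved from 23.3 ± 4.85 to 52.0 ± 10.7, overlapping both Elf2 and Etv6. Against all genes tested, the percentile of per-kb level went from 97.6 to 60.8 for Ets1 and from 33.9 to 57.2 for Erf.

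The summed per-kb level puts the small rises beside the loss. The 9 members other than Ets1 summed to 1183, 1144 and 1178 in controls and 1238, 1282 and 1422 in cKOHet libraries, or 112% ± 8.22 of the control mean (SD, n = 3). With Ets1 included, the 10 genes summed to 2055, 1882 and 2097 in controls and 1293, 1352 and 1474 in cKOHet libraries, 68.3% ± 4.60 of the control mean. The sum of the 9 was higher in every cKOHet library than in every control, and the sum of the 10 was lower in every one. Between group means the 9 gained 146 per kb and Ets1 lost 784, so that the gain amounted to 18.6% of the loss. Without cKOHet replicate 4 the gain was 91.9, or 11.8% of the loss, and without any other single library it was 16.0% to 23.5%. With the length of the longest transcript in place of merged exons, these were 145, 1308 and 11.1%. The Ets1 share of the 10-gene sum went from 41.8% ± 2.37 to 4.32% ± 0.84. Of the gain, Elf4 gave 63.2, Fli1 45.0 and Erf 28.7 per kb, while Elk4 lost 25.9. Etv5 lies outside this sum and gained 51.9 per kb. Over all 14 other Ets genes in the table the gain was 209.8 per kb, 26.8% of the Ets1 loss, or 18.4% without cKOHet replicate 4. The sums carry no test, because the genes were chosen with results known, and they count transcripts of activators and repressors alike.

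**Figure D3:**
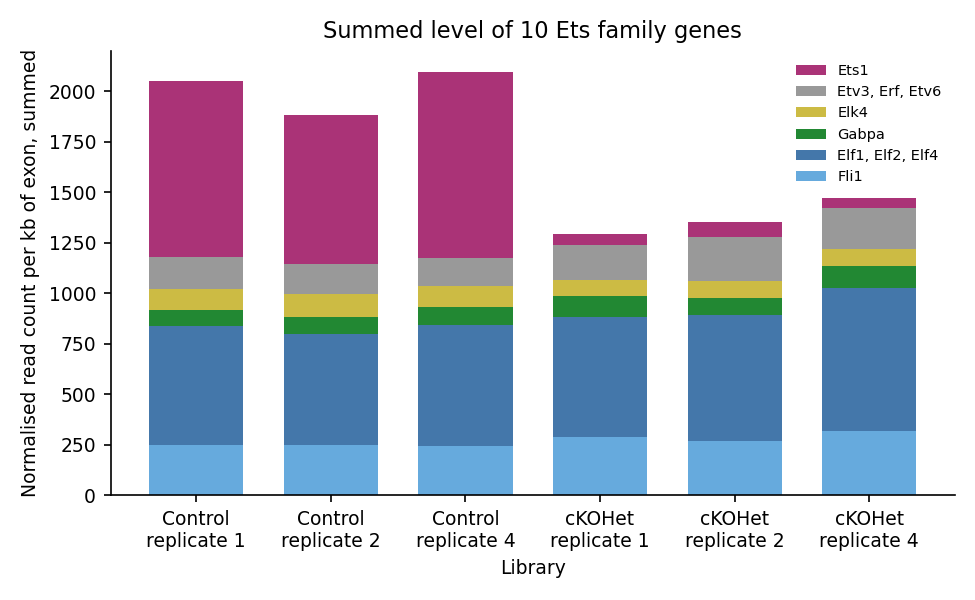
Stacked bars of the normalised read count per kb of merged exon for the 10 Ets family genes in each of the 6 libraries, coloured by gene or branch, with Ets1 on top. Totals run from 1882 to 2097 in controls and from 1293 to 1474 in cKOHet libraries, and the part below Ets1 runs from 1144 to 1183 and from 1238 to 1422.

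Proteins that work with or act on Ets factors were followed as a list of 20 genes, all tested. Of these, 3 were called higher, 1 lower and 16 not called, a share near the 21.4% of all genes, with a median log2 fold change of 0.14. Runx3, whose protein binds DNA next to Ets factors, was at 1012, 1012 and 1161 in controls and 1731, 1888 and 1747 in cKOHet libraries. The groups were far apart (log2 fold change 0.75, SE 0.11, limma adjusted p = 0.000168). The corepressor gene Ncor1 rose from 2084 ± 167 to 2985 ± 548 (SD, n = 3; log2 fold change 0.51, limma adjusted p = 0.014). Daxx, which can bind Ets1 and repress with it, fell from 424, 577 and 419.6 in controls to 264, 260.4 and 349 in cKOHet libraries (-0.70, adjusted p = 0.00716). The acetyltransferase gene Ep300 was called higher at the edge of the threshold (0.49, limma adjusted p = 0.0486).

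The calls of Ep300 and Ncor1 depended on single libraries and on processing. Over the left-out libraries the list's counts ran from 1 to 3 higher and from 1 to 3 lower. Runx2 and Hdac3 joined Daxx as lower without cKOHet replicate 2 (limma adjusted p = 0.0201 and 0.0414). With no mean-variance trend, 1 gene was called higher and 0 lower. Ep300, Ncor1 and Daxx then lost their calls (limma adjusted p = 0.198, 0.107 and 0.0636). Ep300 was also lost with a pseudocount of 0.5, no filter, median-of-ratios scaling or library weights (limma adjusted p = 0.051 to 0.0646). Ep300 was no longer called without any single library except cKOHet replicate 1 (adjusted p = 0.0586 to 0.188). Ncor1 was lost without control replicate 2 (0.0691) or cKOHet replicate 4 (0.0504). In replicates 1 and 2 alone, Ncor1 and Ep300 were not called (adjusted p = 0.0686 and 0.267). The uncalled partners with the highest levels were Cbfb, the Runx cofactor (1093 ± 70.9 and 1184 ± 123, adjusted p = 0.571), and Mrtfa, a coactivator of serum response factor (949 ± 48.7 and 967 ± 124, adjusted p = 0.931).

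Genes known from textbooks as targets of Ets factors in lymphocytes changed in both directions. Of 26 listed, 23 were tested, with 7 called higher, 4 lower and 12 not called. The share of 11 in 23 stands beside 21.4% of all genes, and the median log2 fold change was -0.01. Such genes were listed with earlier results of these libraries known, so the count is a description. The number called higher was 4 without control replicate 1 or without control replicate 2 and 5 to 6 without any other single library, while 4 were called lower each time. The calls lost were those of Il2ra, Cd247 and Ccnd2 (log2 fold changes 0.45, 0.37 and 0.50; limma adjusted p = 0.0322, 0.025 and 0.0424), named here after their values were seen. Prf1, which encodes perforin and is a target of Ets1 and Elf4, was at 391, 361 and 562 in controls and 48.4, 112 and 49.0 in cKOHet libraries (log2 fold change -2.72, limma adjusted p = 5.36e-06). Il2rb, a classical Ets1 target, was at 19870.4, 20474 and 20437 in controls and 10596, 12186 and 14344 in cKOHet libraries (-0.72, adjusted p = 0.00285). Both were lower in every cKOHet library, and Cd4 and Lef1 were also called lower (-3.36 and -1.57).

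Among the targets called higher were Klf2, Egr1 and Dusp6. Not every listed target of Elf4 or Elk4 was called higher. Klf4, an Elf4 target added after its values were seen, was too low to be tested. Its controls were at 0, 4.27 and 3.23 and its cKOHet libraries at 12.1, 8.34 and 19.6. Prf1, named above as a target of Elf4, was called lower. Mcl1, named with Egr1 under Elk4 and added here after its values were seen, was not called (log2 fold change -0.06, limma adjusted p = 0.778). Whether other members act on any of these genes was not tested. Klf2, a quiescence factor reported downstream of Elf4, was at 28.4, 56.0 and 53.0 in controls and 174, 207 and 125 in cKOHet libraries (log2 fold change 1.89, limma adjusted p = 0.000268). Egr1, an immediate early gene under Elk and serum response factors, was at 314, 224 and 362 in controls and 529.8, 643 and 842 in cKOHet libraries (1.16, adjusted p = 0.000399). Dusp6, a phosphatase that ERK signalling induces through Ets factors, was at 1254, 1291 and 1357 in controls and 1851, 1915 and 2009 in cKOHet libraries (0.56, adjusted p = 0.00141). None of these 3 overlapped between groups, but they were named because they were called. Of all genes tested, 19.1% lay without overlap on the higher side. Cd8a was the most uneven, with 237, 1657 and 440.2 in cKOHet libraries against 20.1, 10.7 and 12.8 in controls (5.21, or 4.43 without cKOHet replicate 2 and 5.83 without cKOHet replicate 1). The uncalled targets with the highest levels were Id2 (6975 ± 663 and 6474 ± 749.8, adjusted p = 0.634) and Lck (5049 ± 234 and 5029 ± 338, adjusted p = 0.978).

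**Figure D4:**
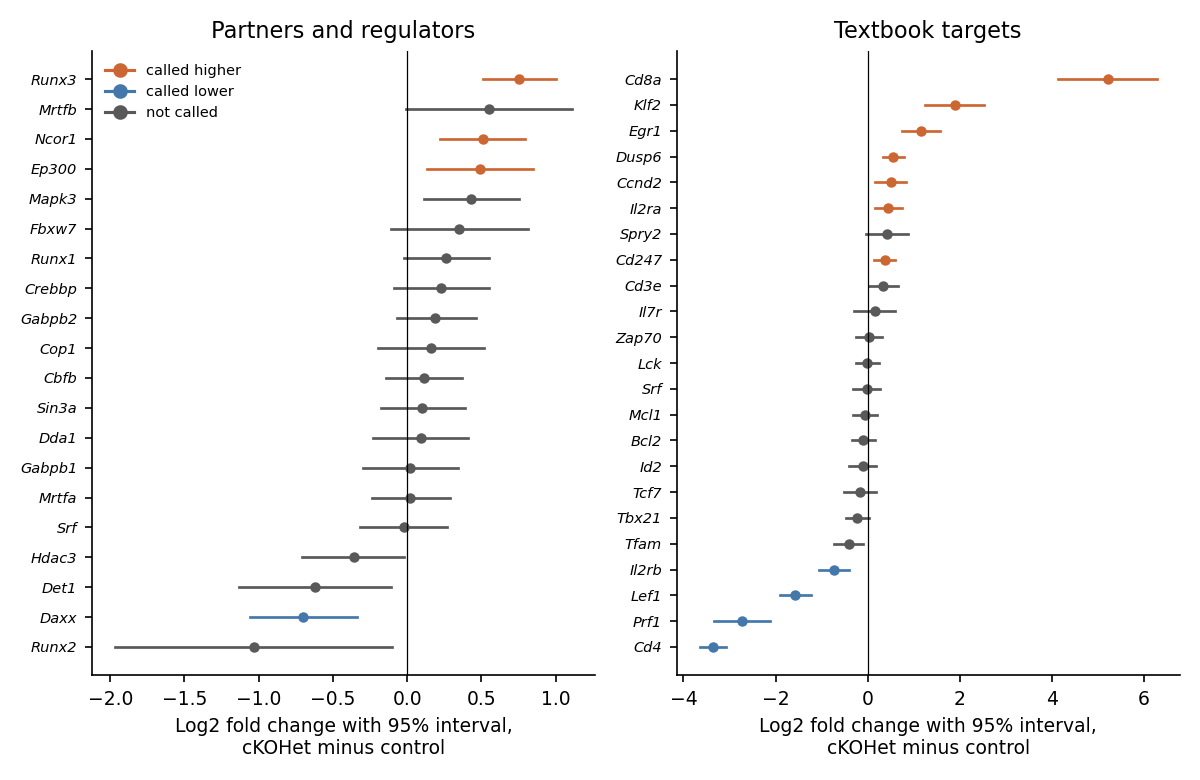
Log2 fold change, cKOHet minus control, with 95% intervals for the 20 partners and regulators (left) and the 23 textbook targets tested (right), coloured by call. Left, 3 genes were called higher and 1 lower, and right, 7 higher and 4 lower, from Cd8a at 5.21 to Cd4 at -3.36.

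Over the 6 libraries, the 5 protein-coding genes whose log2 levels followed Ets1 most closely were Uri1, Cd4, Gpr55, Frmd8 and Slc2a3, with Pearson's r between 0.998 and 0.999. These correlations describe the gap between the groups, since all 6 points share it, and they say nothing of its size. Uri1 was between 401 and 411 in controls and between 324 and 332 in cKOHet libraries and was not called (log2 fold change -0.31, limma adjusted p = 0.115), whereas Cd4 went from 1895 ± 236 to 183 ± 17.4 (SD, n = 3; -3.36, adjusted p = 3.17e-10). Frmd8, Slc2a3 and Gpr55 lay between them, at -1.63, -1.92 and -1.43.

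Markers of other liver cells were low but not equal between groups. Macrophage and monocyte markers (8 of 10 analysed) summed to 33.3 to 94.8 in controls and 137 to 177 in cKOHet libraries, with Adgre1 at about 0 in control replicates 2 and 4 (0.039 and 0.041). Dendritic cell markers (3 of 6) summed to 111 to 155 and 292 to 338, nearly all from Itgax and Xcr1. Flt3, Siglech and Clec9a had no row. Zbtb46 was low, at 8.34, 2.17 and 2.17 in controls and 6.04, 3.65 and 16.5 in cKOHet libraries. Whether the Itgax and Xcr1 transcripts came from dendritic cells was not tested. Endothelial markers (2 of 7) went from 172 to 224 down to 48.9 to 52.4. Most of this was Pecam1, which T cells can also express (220.0, 197 and 172 in controls and 51.4, 42.5 and 36.5 in cKOHet libraries), while Stab2 was at 3.67, 1.10 and 0.038 in controls and 1.01, 6.54 and 12.4 in cKOHet libraries. Hepatocyte markers (7 of 7) overlapped, reaching 408 and 634. Of the B cell markers only Cd22 was analysed (12.6 to 22.0 and at most 0.042), and of the erythroid markers only Hba-a1 (at most 0.057 and 7.40 to 33.2). Macrophages and dendritic cells express Ets genes too. Their part in the small uncalled differences of Fli1, Elf4 and Etv6 and in the called rise of Erf was not tested. In bulk RNA, fewer cells with a transcript and less of it per cell cannot be told apart.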

How the data were processed

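RNA was sequenced from 3 control and 3 cKOHet liver samples. Their titles say iNKT1, except those of control replicate 4 and cKOHet replicate 1, which say iNKT. RNeasy mini kits and Ovation Ultralow libraries were used, per the labels' protocols. The values the authors deposited are a signal, named normalised counts, for each Ensembl gene. The submitters' processing notes name Trimmomatic 0.33, STAR, HTSeq 0.6.1, DESeq2 and mm10; settings, annotation, strand and scaling are not stated there. Low values lie in bands about 1 apart with a library-specific offset; reads could not be recovered from them, sequencing depth is unknown and no count model was used. No gene has a maximum below 5.22, so the lowest genes were already absent. The 2 replicate 1 columns carry joined codes that the labels do not explain.

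GENCODE M21 named 12864 of the 12942 genes, gave positions and exon lengths, and 78 kept their identifier. Genes at or above 10 in at least 3 libraries were tested on log2(value + 1), which understates the change of low genes, with limma 3.58.1 in R 4.3.3 (mean-variance trend, Benjamini-Hochberg). The procedure was also run on simulated counts with known changes. The deposited values are not counts, so that run does not check the calls made here. The series describes the replicates as independent but names no mice, so p-values reflect only the spread among 6 libraries. Exons of Elf1, Elf2, Gabpa, Etv6 and Elk4 overlap another gene over 1.31% to 6.98% of their length.

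The members and lists were chosen with earlier results of these data known. Named were all 10 members, every other tested Ets gene, Tbx21, per list up to 8 called genes by adjusted p and the 2 uncalled with the highest mean, and 5 genes most like Ets1. Marker lists covered T and iNKT, B, macrophage, neutrophil, dendritic, hepatocyte, endothelial, erythroid and stellate cells; no neutrophil or stellate marker was analysed. Alternatives changed the pseudocount (0.5, 5), filter (none, 50), scaling, variance model, replicate block and libraries. A term for Xist and the libraries with high Xist alone were added after seeing the data, as were the sum over all Ets genes and the left-out libraries for gains and list counts. The planned comparison of protein sequences was not made, and some genes of the list of partners are not reported here. Python 3.11.15 and matplotlib 3.10.9 drew the figures.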

Additional observations from a re-analysis of the deposited data

How the results depend on the processing

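Ets1 and Erf kept direction and call under all 18 alternatives (log2 fold changes of -3.97 to -3.69 and 0.99 to 1.31). Over the 14 Ets genes tested, 239 of 252 values kept their direction and side of the threshold. Elk4 lost its call in 7 alternatives, with no mean-variance trend (-0.39, adjusted p = 0.0943), in replicates 1 and 2 alone (-0.42, adjusted p = 0.0605) and with 5 of the 6 libraries left out in turn, so that 0 of the 9 members other than Ets1 were then called lower (0 to 1 over the left-out libraries). The number called higher was 1 to 2, with Elf4 added without cKOHet replicate 1. Etv5 lost its call with no trend (0.84, adjusted p = 0.0569). Elf1 ranged from -0.13 to 0.04 over the left-out libraries, turning positive in 3 of 6 cases (0.04, 0.01 and 0.03), and Elk3 from -0.17 to 0.02, both uncalled. The causes were not tested.

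The summed per-kb level of the 10 members was 59.7% of control with the longest transcript in place of 68.3%, where Ets1 weighs more because its merged exons are 8476 bases and its longest transcript 5080. Quantile scaling moved the median of all genes from 0.01 to -0.02. With the replicate number as a replicate block, Erf was at 1.15 (adjusted p = 0.00438), Elk4 at -0.39 (0.0393) and 1274 genes were higher and 1138 lower, against 1288 and 1119; same-numbered libraries deviated together only weakly (correlations across genes 0.092, 0.088 and 0.055, each the best for its library, but 0.081, 0.077 and 0.009 without genes on X and Y, where replicate 4 no longer matched best), so the numbers were not taken to pair the samples, and the block changed no member's call. Sequencing depth is unknown, so no counting error can be given.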

Other observations

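cKOHet replicate 4 held the highest level of Fli1, Elf1, Elf2, Elf4, Gabpa and Etv6, 6 of the 9 members other than Ets1, while cKOHet replicate 2 held the highest level of Etv3 and Erf. The summed per-kb level of the 9 members was 108% of control without cKOHet replicate 4 and 116% without cKOHet replicate 1.

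Klf4, a quiescence factor that Elf4 activates beside Klf2, was too low to be tested, at 0, 4.27 and 3.23 in controls and 12.1, 8.34 and 19.6 in cKOHet libraries. Tfam, a mitochondrial factor under GABP, was at 349, 305 and 303 in controls and 248, 233 and 239 in cKOHet libraries, with no overlap and a limma adjusted p = 0.0616 (log2 fold change -0.41). Il7r, another GABP target, was at 951, 561 and 903 in controls and 959.8, 622 and 1096 in cKOHet libraries, overlapping (adjusted p = 0.693). These genes were chosen after their values were seen.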
